A study of Mus musculus with 8 samples.

Results

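Livers of mice lacking the cytokine genes Il4 and Il13 were compared with livers of wild-type mice after carbon tetrachloride (CCl4). The members were chosen by their labels as the 3 arrays titled knockout CCl4 and the 3 arrays titled wild-type CCl4, so 6 of the 8 samples in the series entered normalization, filtering and testing. Total RNA was labelled as biotinylated cRNA and hybridised to Illumina bead arrays, 1 array per sample. Both genotypes were Balb/c, both were 2 months old, and both groups had received CCl4. The knockout carried the combined deletion IL-4/IL-13-/-, and the other group was wild type. The other 2 arrays, 1 vehicle liver per genotype, are given only as values beside the CCl4 results. The labels give no dose, route, time after injection, sex or Balb/c substrain, and they do not say whether each array came from its own animal. The p-values therefore cover the spread between these 6 samples alone, part of which may be technical.

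CCl4 is turned into a radical by cytochrome P450 enzymes in hepatocytes around the central vein, and those cells die. The surviving hepatocytes then divide, macrophages and neutrophils clear the debris, and stellate cells lay down a temporary collagen matrix. IL-4 and IL-13 are type 2 cytokines that signal through the shared receptor chain IL-4R alpha and the transcription factor STAT6. In mouse liver they are known to act on macrophages, on stellate cells and on hepatocytes after injury.

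Wild-type arrays had median raw intensities of 68.5 to 76.9 and knockout arrays 63.6 to 66.9, so every knockout array was dimmer, and 9010 to 9821 of 25697 probes per array had a detection p under 0.01. After normalization, array pairs correlated at 0.974 to 0.981 within wild type, at 0.987 within the knockout and at 0.956 to 0.974 between genotypes, taken across genes, which are not independent replicates. The genotypes were separated along the first principal component (53.4% of the variance). The second (17.6%) separated wild-type array 2, at -18.16, from wild-type arrays 1 and 3, at 10.98 and 10.79. Of 8 hepatocyte markers 7 were on the array under their listed symbols and 5 were tested (Apoa1, Ttr, Serpina1a, Hpx and Ahsg), all of them detected on all 6 arrays and none called, with Apoa1 at 14.12, 14.01 and 14.20 on the wild-type arrays and 14.26, 14.24 and 14.20 on the knockout arrays. The single Alb probe was near background and was detected on 3 of the 6 arrays, and Fgb was not well above background on any. Xist, which is transcribed from the inactive X chromosome, was detected on all 8 arrays, at log2 intensities of 9.19, 9.15 and 10.72 on the wild-type arrays and 11.003, 10.73 and 11.16 on the knockout arrays, a difference of 1.28 ± 0.35 (adjusted p = 0.047). The vehicle pair ran the other way, at 10.02 in wild type and 8.44 in the knockout. From the Y chromosome, Eif2s3y and Kdm5d were detected on 0 of the 8 arrays and Uty, near background, on 4.

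The targeted genes could not check the labels. Il4 and Il13 had 1 probe each, and neither was well above background on any of the 8 arrays, with lowest detection p-values of 0.272 and 0.0602. Among the receptor genes, Il13ra2 was not well above background on any array (lowest detection p-value 0.0865), and Il4ra and Il2rg were not analysed here. Il13ra1, the chain that binds IL-13 and pairs with IL-4R alpha, had log2 intensities of 9.78, 9.36 and 9.53 on the wild-type arrays and 10.11, 9.90 and 10.26 on the knockout arrays. The 2 groups did not overlap, but the difference of 0.53 ± 0.17 (adjusted p = 0.0739) did not pass the test. Stat6 differed by -0.10 ± 0.18 (adjusted p = 0.771), with overlapping groups.

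Differences are knockout minus wild type in log2 units, with the standard error (SE) and n = 3 arrays per genotype throughout, and a gene was called when limma's adjusted p was under 0.05. Of 6677 genes tested, 241 were higher in the knockout (3.61%) and 290 were lower (4.34%). A difference of at least 1 on the log2 scale was found for 64 higher genes (0.959%) and 64 lower genes (0.959%). Most calls were of moderate size: the median was 0.85 among higher genes and -0.79 among lower genes, and the smallest called differences were 0.51 and -0.53. The median over all genes was -0.02 and the median SE was 0.17. The groups did not overlap in 240 of the 241 higher genes and 289 of the 290 lower genes, where 32.1% of all genes tested had groups that did not overlap. The counts depended on single arrays. Without wild-type arrays 1, 2 and 3 in turn, 58, 166 and 500 genes were higher and 106, 187 and 391 lower. Without knockout arrays 1, 2 and 3 in turn, 41, 69 and 52 were higher and 84, 98 and 84 lower. Scaling the arrays by their medians in place of quantile normalization shifted the all-gene median by -0.17 and gave 190 higher and 781 lower genes, so the share of higher against lower calls rests on the scaling. The naming rules chose 102 called genes. All 102 kept their sign under every alternative that tested them, and 23 of the 24 largest were called whichever array was left out. Of the 102, 44 were called whichever array was left out, 58 lost their call without at least 1 array, and 46 lost it without more than 2 of the 6 arrays in turn.

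**Figure D1:**
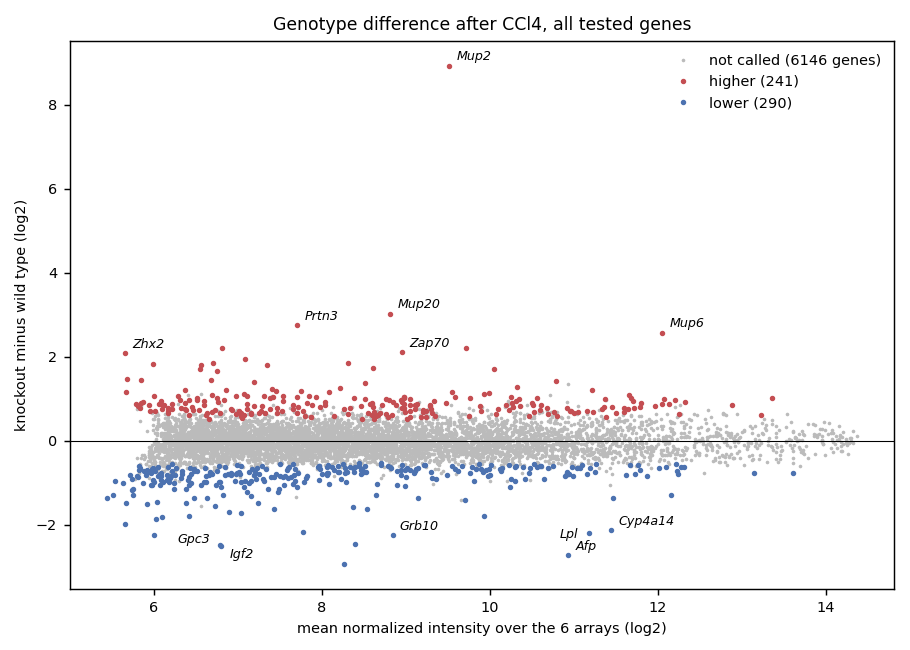
Genotype difference after CCl4 for the 6677 tested genes: the x axis is the mean normalized log2 intensity over the 6 arrays and the y axis is knockout minus wild type on the log2 scale, with 241 higher genes in red and 290 lower genes in blue. Mup2 stands alone at the top at 8.93, and Afp, Gpc3, Igf2, Grb10, Lpl and Cyp4a14 are labelled at the bottom.

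The hepatic repressor Zhx2 and the fetal liver genes linked to it changed in opposite directions. Zhx2 is a zinc finger and homeobox factor known in mouse to repress Afp, Gpc3 and H19 in liver after birth and to influence Lpl. Zhx2 gave log2 intensities of 4.63, 4.67 and 4.53 on the wild-type arrays and 6.76, 6.81 and 6.52 on the knockout arrays. It was not well above background on any wild-type array and was detected on all knockout arrays, which puts the knockout at least 1.72-fold higher, with a fitted difference of 2.08 ± 0.15 (adjusted p = 5.06e-05). Afp, the fetal serum protein alpha-fetoprotein, fell in the knockout. Its log2 intensities were 12.60, 12.08 and 12.20 on the wild-type arrays and 9.56, 9.999 and 9.17 on the knockout arrays, with no overlap and a difference of -2.72 ± 0.22 (adjusted p = 8.45e-05). Gpc3, a cell surface proteoglycan of fetal liver, was at 8.09, 8.22 and 7.85 on the wild-type arrays and 5.35, 5.50 and 5.78 on the knockout arrays. It was not well above background on any knockout array, which puts it at least 4.12-fold lower, with a fitted difference of -2.51 ± 0.17 (adjusted p = 3.97e-05), and a second probe gave -2.54. Lpl, the lipoprotein lipase that frees fatty acids from circulating triglyceride, is low in normal adult hepatocytes. It was at 12.13, 12.63 and 12.07 on the wild-type arrays and 10.16, 10.17 and 9.94 on the knockout arrays, a difference of -2.19 ± 0.18 (adjusted p = 8.45e-05). H19 was not analysed here.

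The vehicle arrays separate these genes into 2 kinds. Zhx2 was not well above background in the wild-type vehicle liver (4.53) and was detected in the knockout vehicle liver (6.20), a difference of 1.67 between single arrays. Lpl also differed there, at 10.44 in wild type and 9.14 in the knockout. Afp and Gpc3 were not well above background on either vehicle array, so neither has a direction there. Low Zhx2 with raised Afp is a known inherited trait of the BALB/cJ substrain in mouse, and substrain and genotype cannot be told apart with these labels.

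Promoters of 17 of the 24 genes with the largest changes were matched in RefSeq's table for GRCm38.p6, which holds 300 bases around each gene's start. Those of Afp, Gpc3 and Mup2 are shown because the results on fetal and urinary protein genes turn on them. Capitals mark matches to a core of the site of the hepatocyte factor HNF1, GTTAAT, which 7.1% of the 32851 promoters of the table hold. Capitals also mark matches to the TATA box, TATANAA, which 11.3% hold. Both strands were searched, and no marked match overlaps another.
Afp (chr5:90490464-90490763, + strand): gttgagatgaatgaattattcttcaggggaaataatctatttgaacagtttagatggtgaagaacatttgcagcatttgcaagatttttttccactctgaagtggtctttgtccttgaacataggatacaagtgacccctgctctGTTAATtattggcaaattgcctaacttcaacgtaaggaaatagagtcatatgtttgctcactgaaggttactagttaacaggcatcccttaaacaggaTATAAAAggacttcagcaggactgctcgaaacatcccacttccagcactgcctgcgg
Gpc3 (chrX:52613925-52614224, - strand): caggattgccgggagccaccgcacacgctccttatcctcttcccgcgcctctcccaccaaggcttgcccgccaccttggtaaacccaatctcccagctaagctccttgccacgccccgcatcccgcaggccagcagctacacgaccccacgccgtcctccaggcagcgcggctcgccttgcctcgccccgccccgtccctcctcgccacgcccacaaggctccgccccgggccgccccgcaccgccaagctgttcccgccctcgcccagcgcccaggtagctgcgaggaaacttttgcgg
Mup2 (chr4:60139807-60140106, - strand): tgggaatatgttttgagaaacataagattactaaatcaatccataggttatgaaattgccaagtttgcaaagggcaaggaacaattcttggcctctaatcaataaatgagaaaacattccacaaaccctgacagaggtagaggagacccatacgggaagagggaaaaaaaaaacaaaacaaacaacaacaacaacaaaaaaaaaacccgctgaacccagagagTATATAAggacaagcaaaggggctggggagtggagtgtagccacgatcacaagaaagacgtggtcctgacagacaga
The Afp window held 1 match to each motif, the Mup2 window held 1 TATA box and 0 HNF1 cores, and the Gpc3 window held 0 of both. A match is a description of letters only.

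Most major urinary protein genes on the array rose in the knockout. They are lipocalins made by hepatocytes, carry pheromones in urine, and are encoded by a cluster of near-identical genes on chromosome 4, so probes can read more than 1 copy. Of 21 listed members 5 were on the array and all were tested, and 4 were higher and 0 lower. Among all genes 3.61% were higher and 4.34% lower. Mup2 had log2 intensities of 5.21, 5.17 and 4.78 on the wild-type arrays and 14.02, 13.81 and 14.10 on the knockout arrays. It was not well above background on any wild-type CCl4 array, and it was at least 268-fold higher on the knockout arrays (8.93 ± 0.17, adjusted p = 7.21e-11), and a second probe gave 8.19. Mup20, also called darcin, was at 6.66, 7.61 and 7.64 on the wild-type arrays and 10.68, 10.15 and 10.17 on the knockout arrays, a difference of 3.03 ± 0.26 (adjusted p = 9.95e-05). Mup6 rose by 2.57 ± 0.20 (adjusted p = 6.55e-05) and Mup21 by 0.86 ± 0.17 (adjusted p = 0.0144), but Mup21 lost its call in 4 of the 6 fits with 1 array left out, with adjusted p up to 0.0595. Mup5 differed by 0.60 ± 0.21 (adjusted p = 0.108), which did not pass the test.

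The vehicle pair did not show this pattern. Mup2 was at 14.13 in the wild-type vehicle liver and 13.75 in the knockout vehicle liver, so the gene was bright in wild type without CCl4. The other members were also lower in the knockout vehicle liver, at -1.20 for Mup20, -0.53 for Mup6, -0.60 for Mup21 and -0.87 for Mup5. The second Mup2 probe went the other way there, at raw intensities of 4914.2 in wild type and 7228.5 in the knockout. The direction of Mup2 in the vehicle pair thus depends on the probe. Of the other genes listed as higher in male mouse liver 12 were tested, with 1 higher and 2 lower. The shares among all genes were 3.61% higher and 4.34% lower. Nudt7 rose by 0.87 ± 0.18, Cyp2d9 fell (-0.90 ± 0.16) and the steroid dehydrogenase Hsd3b5 was at least 1.09-fold lower. With 1 array left out the adjusted p reached 0.0782 for Nudt7, 0.0523 for Cyp2d9 and 0.0508 for Hsd3b5.

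The other large increases joined immune and hepatocyte genes. Prtn3, the neutrophil granule protease proteinase 3, was at 6.91, 5.82 and 6.25 on the wild-type arrays and 8.93, 8.37 and 9.96 on the knockout arrays, a difference of 2.76 ± 0.36 (adjusted p = 0.00231), with knockout array 3 the highest. Zap70, the kinase that binds the chains of the T cell receptor, was at 7.93, 7.40 and 8.38 on the wild-type arrays and 10.23, 9.87 and 9.94 on the knockout arrays. Its groups were well apart at 2.11 ± 0.23 (adjusted p = 0.000596), a second tested probe gave 2.04, and the other Zap70 probe was not well above background on any array. S1pr5, a sphingosine-1-phosphate receptor of natural killer (NK) cells, was not well above background on any wild-type array and was at least 1.98-fold higher (1.83 ± 0.25), but the other S1pr5 probe was detected on 0 of the 6 arrays. The conjugating enzyme Ugt3a1 was at 5.48, 5.85 and 5.78 on the wild-type arrays and 7.90, 7.62 and 8.24 on the knockout arrays, a difference of 2.22 ± 0.19 (adjusted p = 9.95e-05). Cyp17a1, a steroid hydroxylase, rose by 1.85 ± 0.31 (adjusted p = 0.00824), Mmd2 by 1.95 ± 0.30 and the dehydrogenase Sdr9c7 by 1.85 ± 0.22. Prtn3 and Mmd2 were detected on 2 of the 3 wild-type arrays, and Ugt3a1 and Sdr9c7 on 1. Like S1pr5, they passed the detection filter through the knockout arrays alone. Car3, carbonic anhydrase 3 of hepatocytes and fat cells, was at 7.63, 10.11 and 8.10 on the wild-type arrays and 11.01, 10.35 and 11.12 on the knockout arrays. Wild-type array 2 was close to the knockout arrays, and the difference of 2.21 ± 0.50 (adjusted p = 0.0263) was lost without wild-type array 1 or 3 or knockout array 1 or 3, with adjusted p up to 0.0974.

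**Figure D2:**
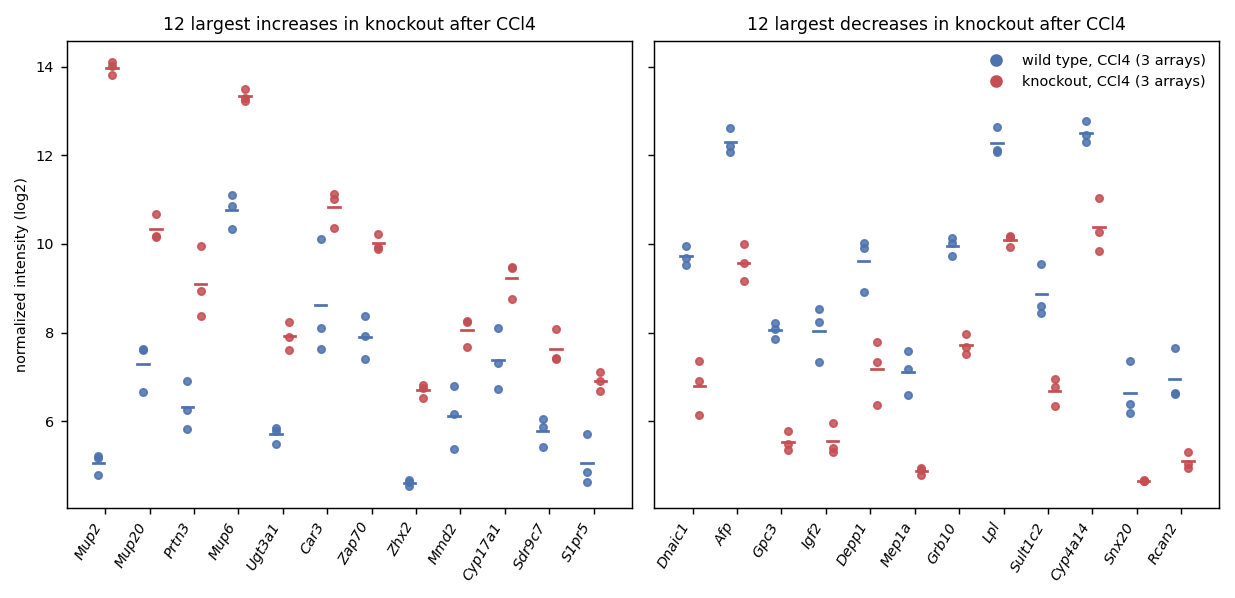
Normalized log2 intensity (y axis) of the 12 largest increases and 12 largest decreases on each array, wild type in blue and knockout in red, with a bar at each mean of 3 arrays. In all 24 genes the genotypes do not overlap, and Car3 in wild type has the widest spread, from 7.63 to 10.11.

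The other large decreases were led by Dnaic1, a dynein chain of motile cilia, at 9.69, 9.52 and 9.95 on the wild-type arrays and 6.13, 7.37 and 6.90 on the knockout arrays. Its difference was -2.92 ± 0.27 (adjusted p = 0.000185), and a second probe gave -2.38. Both growth genes Igf2 and Grb10 are imprinted, that is, expressed from 1 parental copy. Igf2, the fetal insulin-like growth factor, was at 8.24, 7.33 and 8.54 on the wild-type arrays and 5.95, 5.31 and 5.39 on the knockout arrays and was detected on 1 of 3 knockout arrays, a difference of -2.48 ± 0.28 (adjusted p = 0.000882). Grb10, an adaptor that damps insulin and IGF receptor signals, was at 10.14, 10.01 and 9.74 on the wild-type arrays and 7.52, 7.68 and 7.97 on the knockout arrays, a difference of -2.24 ± 0.17 (adjusted p = 6.55e-05). Cyp4a14, a fatty acid omega-hydroxylase induced by PPAR alpha, was at 12.46, 12.29 and 12.78 on the wild-type arrays and 10.27, 11.04 and 9.84 on the knockout arrays, a difference of -2.13 ± 0.26 (adjusted p = 0.00143). Depp1, a FOXO target (-2.45 ± 0.36, adjusted p = 0.00362), and the sulfotransferase Sult1c2 (-2.17 ± 0.27, adjusted p = 0.00143) fell too. Mep1a, a metalloprotease subunit, Snx20, a sorting nexin, and Rcan2, a calcineurin inhibitor, were not well above background on any knockout array. They were at least 2.16-fold, 1.55-fold and 1.94-fold lower there.

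Genes read on the CCl4 arrays of 1 genotype alone were counted next, and wild-type-only and knockout-only refer to these arrays. Detected on all 3 wild-type arrays and on no knockout array were 81 genes, of which 52 were called, and the reverse held for 26 genes, of which 20 were called. Both counts come from detection and are a description. Beside those above, the larger wild-type-only genes were Nxpe2, the dicarboxylate carrier Slc13a3, the ubiquitin ligase Mid1, the signalling regulator Rgs16, the collagen chain Col1a1 and the phosphatidate phosphatase Lpin1. They were at least 2-fold, 2.47-fold, 1.32-fold, 1.08-fold, 1.58-fold and 1.68-fold lower in the knockout. The knockout-only genes were Spsb4, Phlda2, Rab38, Cxcl14, Rmdn1, Wnt5b and Btg3, at least 1.42-fold, 1.58-fold, 1.27-fold, 1.55-fold, 1.84-fold, 1.34-fold and 1.3-fold higher. Most of these bounds are small. On the knockout vehicle array Nxpe2 (7.78), Slc13a3 (6.95), Rgs16 (8.87) and Lpin1 (6.73) were detected. On the wild-type vehicle array Spsb4 (6.21) and Rmdn1 (7.01) were detected. The other genes named in this paragraph were detected on neither vehicle array. Adjusted p reached 0.0681 for Rmdn1, 0.0636 for Wnt5b and 0.0933 for Btg3 with 1 array left out. Rab38 lost its call when all 8 arrays entered.

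Set beside the vehicle pair, part of the large changes pointed the same way without CCl4. Of the 12 largest increases 11 were detected on at least 1 vehicle array, and of these 8 were above 0 in the vehicle pair, 5 of them at 1 or more. Of the 12 largest decreases 7 were detected there, and 5 of these were below 0, all at -1 or less. Among the 6279 tested genes detected on at least 1 vehicle array, 3.46% differed by 1 or more between the 2. Prtn3, Afp, Gpc3, Igf2, Mep1a and Snx20 were detected on neither vehicle array and have no direction there. The vehicle difference was -2.97 for Cyp4a14, -1.91 for Dnaic1, -1.67 for Grb10, 2.32 for Car3, 2.17 for Mmd2 and 1.23 for Ugt3a1. Depp1 (1.28), Rcan2 (0.32) and the Mup genes had the opposite sign, though the raw intensities of the second Mup2 probe did not. Over all called genes detected on at least 1 vehicle array, 80 of 215 higher genes were above 0 there and 96 of 227 lower genes were below 0, against 48.6% and 51.3% of all genes so detected. With 1 vehicle array per genotype these values have no replicate check and no test.

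**Figure D3:**
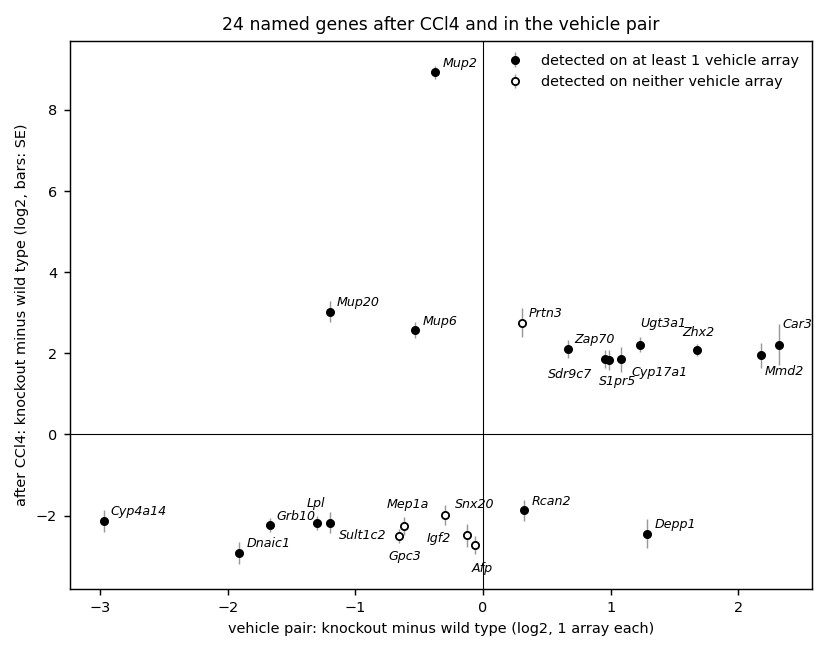
The 24 genes with the largest changes: knockout minus wild type in the vehicle pair on the x axis (log2, 1 array each) against the same difference after CCl4 on the y axis (log2, bars show SE, 3 arrays per genotype). Hollow points were detected on neither vehicle array, and Mup2, Mup20, Mup6, Depp1 and Rcan2 lie in the quadrants where the signs differ.

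Many mitotic genes were lower in the knockout. Of 55 listed members 47 were on the array and 29 were tested, of which 13 were lower and 0 higher, against 4.34% lower among all genes. The list's median was -0.69, against -0.02 for all genes, and 27 of 29 members were below 0. Among the 24 members detected on all 6 arrays, 12 were lower. Plk1, the kinase that drives entry into mitosis, was at 9.003, 9.42 and 9.10 on the wild-type arrays and 8.05, 8.14 and 8.26 on the knockout arrays, a difference of -1.02 ± 0.16 (adjusted p = 0.00519). Kif4, a chromosome-bound kinesin, was at 8.21, 8.08 and 8.20 on the wild-type arrays and 7.20, 7.15 and 7.08 on the knockout arrays, a difference of -1.03 ± 0.14 (adjusted p = 0.00285). The spindle assembly factor Tpx2 (-1.15 ± 0.16, adjusted p = 0.00285) and the microtubule-depolymerising kinesin Kif2c (-1.21 ± 0.18, adjusted p = 0.00417) also fell. The only 2 members above 0, the checkpoint gene Mad2l1 (0.09 ± 0.16) and the kinetochore gene Spc24 (0.16 ± 0.18), did not pass the test. The mean of the 29 members, relative to their mean over the 6 arrays, was 0.10, 0.54 and 0.41 on the wild-type arrays, and wild-type array 2 was the highest array in 16 of them, against 22.1% of all genes. Leaving out wild-type arrays 1, 2 and 3 gave 13, 11 and 11 lower members, and leaving out knockout arrays 1, 2 and 3 gave 10, 9 and 7. Median scaling gave 23. The list's median was 0.12 in the vehicle pair, where Plk1, Kif4, Tpx2 and Kif2c were detected on neither array.

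Genes of DNA replication, which act earlier in the cell cycle, gave 3 calls. Of 49 listed, 32 were tested, with 2 lower (6.25%), 1 higher (3.1%) and a median of 0.04. The shares among all genes were 4.34% lower and 3.61% higher, with a median of -0.02. The flap endonuclease Fen1 (-0.71 ± 0.14, adjusted p = 0.0174) and the single-strand binding protein Rpa1 (-0.59 ± 0.16, adjusted p = 0.0431) fell, while the origin factor Mcm10 rose by 0.82 ± 0.17 (adjusted p = 0.0182). With 1 array left out the adjusted p reached 0.0743, 0.142 and 0.0784. The difference between the lists was not tested.

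Promoters of mitotic genes are known for CCAAT boxes, bound by NF-Y, and for the cell cycle homology element TTTGAA. Of the 13 lower mitotic genes 12 had a promoter in the RefSeq table. CCAAT was in 9 of them (75.0%) and TTTGAA in 11 (91.7%), on either strand. The shares were 69.6% and 82.6% among the 23 tested members with a promoter, and 37.4% and 17.9% among all promoters in the table. The mitotic shares count genes with the motif in any of their windows, while those of the table count single windows. The 2 kinds of share are therefore not alike. The windows of Plk1 and of Cdc20, an activator of the anaphase ubiquitin ligase that was named after its values were seen (-1.10 ± 0.19, adjusted p = 0.00987), are shown as lower members holding both motifs, in capitals, with no overlap between them.
Plk1 (chr7:122159185-122159484, + strand): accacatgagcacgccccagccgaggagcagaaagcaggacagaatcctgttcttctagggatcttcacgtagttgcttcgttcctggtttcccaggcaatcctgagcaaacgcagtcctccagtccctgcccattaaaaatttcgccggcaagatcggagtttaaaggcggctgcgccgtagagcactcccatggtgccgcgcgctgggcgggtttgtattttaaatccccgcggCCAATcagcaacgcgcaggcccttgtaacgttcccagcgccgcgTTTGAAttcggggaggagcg
Cdc20 (chr4:118437294-118437593, - strand): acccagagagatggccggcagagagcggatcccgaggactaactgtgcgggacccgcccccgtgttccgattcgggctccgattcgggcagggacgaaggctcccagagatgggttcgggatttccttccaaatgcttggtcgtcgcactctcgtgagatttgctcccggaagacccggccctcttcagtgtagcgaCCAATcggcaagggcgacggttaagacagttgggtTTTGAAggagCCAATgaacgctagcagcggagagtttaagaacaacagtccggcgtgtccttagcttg
Plk1 held 1 match to each motif, and Cdc20 held 2 CCAAT and 1 TTTGAA.

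Part of the matrix and stellate cell genes were also lower in the knockout. In whole liver, fewer cells of a type and less RNA per cell cannot be told apart. Of 54 listed members 46 were on the array and 29 were tested, with 10 lower, 0 higher and a median of -0.44, against 4.34% lower and a median of -0.02 among all genes. Of the 29, 6 passed the detection filter through the wild-type arrays alone, and among the 23 detected on all 6 arrays 7 were lower. Col1a1, the main fibrillar collagen chain, was at 6.86, 6.55 and 6.60 on the wild-type arrays and 4.95, 4.89 and 5.66 on the knockout arrays, not well above background on any knockout array and at least 1.58-fold lower. Mmp2, a gelatinase of stellate cells, was at least 1.25-fold lower. Col5a1, a fibril-forming collagen chain, was at 8.39, 8.13 and 8.32 on the wild-type arrays and 7.22, 7.08 and 7.62 on the knockout arrays, a difference of -0.97 ± 0.17 (adjusted p = 0.0121), and the basement membrane chain Col4a2 fell (-0.84 ± 0.17, adjusted p = 0.0199). The summed level of the tested members, on the linear normalized scale, was 24760 to 30220 on wild-type arrays and 19230 to 21920 on knockout arrays. The activation marker Acta2 (-0.30 ± 0.24), Timp1 (-0.13 ± 0.22) and Col3a1 (-0.45 ± 0.30) did not pass the test, and for each the 2 groups overlapped. Without wild-type arrays 1, 2 and 3 the lower members numbered 3, 7 and 9, and without knockout arrays 1, 2 and 3 they numbered 3, 2 and 6. In the vehicle pair the list's median had the other sign, at 0.40.

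Part of the sinusoidal endothelial genes were lower too. Of 34 listed, all on the array, 23 were tested, with 6 lower, 0 higher and a median of -0.37, against 4.34% lower and a median of -0.02 among all genes. Among the 21 detected on all 6 arrays 5 were lower. Plvap, the diaphragm protein of fenestrated vessels, was at 10.60, 10.25 and 10.37 on the wild-type arrays and 9.61, 9.53 and 9.67 on the knockout arrays, a difference of -0.80 ± 0.15 (adjusted p = 0.0138). The TGF-beta coreceptor Eng (-0.73 ± 0.15, adjusted p = 0.0202), the endothelial factor Sox18 (-0.71 ± 0.15, adjusted p = 0.0203) and the hyaluronan receptor Lyve1 (-0.83 ± 0.19, adjusted p = 0.0264) fell too. The list's summed level was 16980 to 18570 on wild-type arrays and 13370 to 14160 on knockout arrays. Leaving out wild-type arrays 1, 2 and 3 left 2, 4 and 6 lower members, and leaving out knockout arrays 1, 2 and 3 left 0, 0 and 2.

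**Figure D4:**
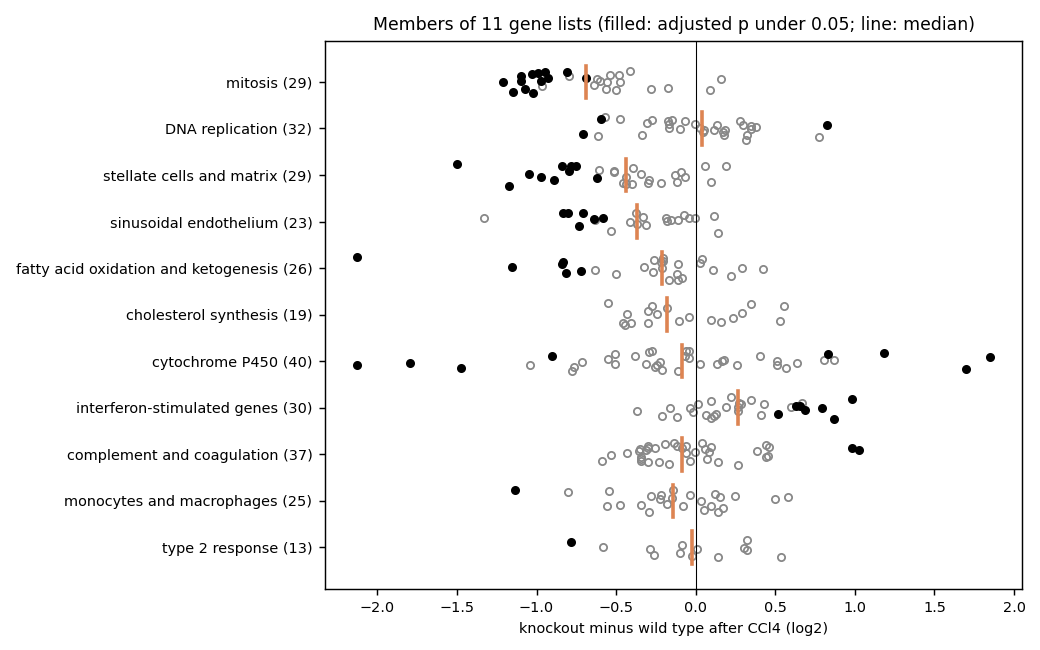
Knockout minus wild type after CCl4 (x axis, log2) for each tested member of 11 gene lists (number of members in brackets); filled circles have an adjusted p under 0.05 and the vertical bar is the list's median. Mitosis sits furthest to the left with a median of -0.69, and interferon-stimulated genes sit to the right with 0.27.

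Genes of the type 2 response itself gave 1 call. Of 37 listed members 33 were on the array and 13 were tested, and 1 was lower and 0 higher, with a median of -0.02. Among all genes 4.34% were lower, and the median was also -0.02. The lower gene was Pparg, the lipid-sensing nuclear receptor, at 7.25, 7.38 and 7.19 on the wild-type arrays and 6.58, 6.62 and 6.27 on the knockout arrays, a difference of -0.78 ± 0.16 (adjusted p = 0.0172) with adjusted p up to 0.0717 when 1 array was left out. Arg1, which in liver is mostly the hepatocyte urea cycle enzyme, differed by -0.09 ± 0.19, the mannose receptor Mrc1 by 0.14 ± 0.19 and the eosinophil chemokine Ccl24 by 0.01 ± 0.22, and none passed the test. Of the untested members, 16 were not well above background on any of the 6 arrays. Of the eosinophil list 1 of 11 members was tested, of the mast cell and basophil list 2 of 14, and 0 were called.

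Myeloid markers gave few calls, where 3.61% of all genes were higher and 4.34% lower. Of 25 tested monocyte and macrophage genes, 1 was lower and 0 higher. It was Gpnmb, a glycoprotein of lipid-laden macrophages, not well above background on any knockout array and at least 1.73-fold lower. Its adjusted p reached 0.0925 with 1 array left out. Of 14 Kupffer cell genes 2 were lower, the lectin receptor Clec1b (at least 1.23-fold) and the complement chain C1qb (-0.60 ± 0.16), and 1 was higher, the HLH factor Id3 (0.93 ± 0.24). With 1 array left out their adjusted p reached 0.0972, 0.13 and 0.133. Of 8 tested neutrophil genes Prtn3 alone was called. S100a8, a calprotectin subunit abundant in neutrophils, was at 10.69, 10.14 and 10.56 on the wild-type arrays and 11.85, 10.23 and 12.08 on the knockout arrays, with knockout array 2 inside the wild-type range. Neither S100a8 (0.92 ± 0.39) nor its partner S100a9 (0.96 ± 0.42) passed the test. The granule proteases Elane and Ctsg, stored in the same granules as Prtn3, were detected on 0 of the 8 arrays, and Mpo was detected on 1 array, knockout array 3, with 1 of its 3 probes. The summed level of the tested neutrophil genes was 16110 to 19680 on wild-type arrays and 14530 to 25230 on knockout arrays.

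T and NK cell genes were mostly below detection. Of 28 listed members 24 were on the array, 3 were tested and 21 were detected on 0 of the 6 arrays. Zap70 and the chemokine Ccl5 (1.46 ± 0.27, adjusted p = 0.0131) were higher in the knockout, where 3.61% of all genes were higher. Ccl5 was at 5.69, 6.07 and 6.09 on the wild-type arrays and 6.99, 7.10 and 8.13 on the knockout arrays. It was detected on 2 of 3 wild-type arrays, so it passed the detection filter through the knockout arrays alone. Its adjusted p was 0.0624 without wild-type array 1. Perforin (Prf1) differed by 0.67 ± 0.25 and did not pass the test. The summed level of the 3 tested genes was 399 to 752 on wild-type arrays and 1417 to 1713 on knockout arrays. This sum includes Zap70 and Ccl5 and does not stand for the members below detection. The defining T cell genes Cd3e and Cd8a, the pan-leukocyte gene Ptprc and the protease Gzma were detected on 0 of the 8 arrays. The part of these cells in the Zap70, Ccl5 and Prtn3 results was not tested.

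Part of the interferon-stimulated genes rose. Of 44 listed members 41 were on the array and 30 were tested, with 7 higher, 0 lower and a median of 0.27, against 3.61% higher among all genes. Of the 30, 3 passed the detection filter through the knockout arrays alone, and among the 27 detected on all 6 arrays 6 were higher. Ifi27, a mitochondrial interferon-induced protein, was at 11.34, 11.45 and 11.38 on the wild-type arrays and 12.13, 12.22 and 12.21 on the knockout arrays, a difference of 0.79 ± 0.14 (adjusted p = 0.0107) in groups with little spread. The ubiquitin-like protein Isg15 was at 8.47, 7.73 and 8.75 on the wild-type arrays and 9.10, 9.35 and 9.43 on the knockout arrays, a difference of 0.98 ± 0.24 (adjusted p = 0.0322). The immunoproteasome subunits Psmb9 and Psmb8 rose by 0.87 ± 0.17 (adjusted p = 0.0174) and 0.69 ± 0.16 (adjusted p = 0.0277). Leaving out wild-type arrays 1, 2 and 3 left 1, 5 and 7 higher members, leaving out knockout arrays 1, 2 and 3 left 1, 2 and 2, and median scaling left 3 higher and made 1 lower (Oasl2, named after its values were seen), with a list median of 0.08. In the vehicle pair the list's median was 0.19, but Psmb9 was lower in the knockout vehicle liver, at -1.57.

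Antigen presentation genes gave 4 calls among 18 tested, against 3.61% higher and 4.34% lower among all genes. The same Psmb9 and Psmb8 were higher, and the class I gene H2-T23 (-0.63 ± 0.14) and Tapbp (at least 1.17-fold), which helps load peptides on class I, were lower. All 4 calls were lost in at least 3 of the 6 fits with 1 array left out, with adjusted p up to 0.0754, 0.112, 0.0959 and 0.11. Of 15 tested chemokine and receptor genes 3 were higher, Ccl5, the monocyte chemoattractant Ccl9 (1.01 ± 0.17, adjusted p = 0.00769) and Cxcl14 (at least 1.55-fold), and 1 was lower, Ccl25 (-1.54 ± 0.27, adjusted p = 0.0108). Ccl9 was at 12.57, 13.03 and 12.98 on the wild-type arrays and 13.89, 13.98 and 13.73 on the knockout arrays, with no overlap. Ccl25 lost its call without wild-type array 1 (adjusted p = 0.0518).

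Some fatty acid oxidation genes fell. Of 26 tested, all detected on all 6 arrays, 6 were lower and 0 higher, with a median of -0.21, against 4.34% lower and a median of -0.02 among all genes. After Cyp4a14, the peroxisomal bifunctional enzyme Ehhadh was at 9.93, 9.99 and 9.77 on the wild-type arrays and 9.18, 9.18 and 8.89 on the knockout arrays, a difference of -0.82 ± 0.15 (adjusted p = 0.0136). The peroxisomal thiolases Acaa1b (-0.84 ± 0.19, adjusted p = 0.0292) and Acaa1a (-0.72 ± 0.17, adjusted p = 0.0294) fell too. For these 3 enzymes the vehicle pair gave -0.31, 0.03 and 0.12. The lower members numbered 1, 4 and 6 without wild-type arrays 1, 2 and 3, and 3, 3 and 1 without knockout arrays 1, 2 and 3.

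Fatty acid synthesis genes were called in both directions, and the cholesterol synthesis and lipid uptake lists gave few calls. Of 20 fatty acid synthesis genes 2 were higher, the lipogenic regulator Thrsp (1.20 ± 0.23, adjusted p = 0.0135) and the carbohydrate response factor Mlxipl (1.000 ± 0.22, adjusted p = 0.0247), and 2 were lower, Lpin1 and the desaturase Fads2 (-0.74 ± 0.15, adjusted p = 0.0189). Mlxipl was at 8.06, 8.81 and 8.78 on the wild-type arrays and 9.86, 9.43 and 9.37 on the knockout arrays. All 4 calls were lost in at least 1 fit with 1 array left out, with adjusted p up to 0.0576, 0.0945, 0.0578 and 0.0806. The fatty acid synthesis list had 10% higher and 10% lower, against 3.61% and 4.34% among all genes. Among its 17 members detected on all 6 arrays 1 was higher and 1 lower. Of 19 cholesterol synthesis genes 0 were called, with a median of -0.18. Of 27 genes of lipid uptake, lipoproteins and droplets Lpl alone was called.

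A few bile acid genes were called, in both directions. Cyp7a1, the rate-limiting enzyme of the classical route, was at 8.35, 10.39 and 8.85 on the wild-type arrays and 11.24, 10.35 and 11.09 on the knockout arrays. Wild-type array 2 overlapped the knockout range, and the difference of 1.70 ± 0.43 (adjusted p = 0.0372) was called without wild-type array 2 (adjusted p = 0.000736) but lost without any other array, with adjusted p up to 0.137. Cyp8b1, which makes cholic acid, was at 10.62, 11.38 and 10.50 on the wild-type arrays and 8.54, 9.30 and 9.26 on the knockout arrays, with no overlap and a difference of -1.80 ± 0.26 (adjusted p = 0.00362). Cyp39a1, an oxysterol hydroxylase, fell (-1.47 ± 0.22, adjusted p = 0.00377). The basolateral exporter subunit Slc51b rose by 0.71 ± 0.18 (adjusted p = 0.0389), with adjusted p up to 0.139 when 1 array was left out. In total 3 of 21 tested bile acid genes were higher and 2 lower, and 4 of 40 cytochrome P450 genes were higher and 4 lower, against 3.61% and 4.34% of all genes. In the vehicle pair Cyp7a1 had the opposite sign (-1.22), and Cyp8b1 and Cyp39a1 had the same sign (-0.36 and -0.56).

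Pericentral, periportal and urea cycle and amino acid lists gave few calls, where 3.61% of all genes were higher and 4.34% lower. Wild-type array 2 stood apart in several lists of hepatocyte function. The mean of the 23 pericentral genes, relative to their mean over the 6 arrays, was -0.27, 0.52 and -0.33 on the wild-type arrays, and that of the 40 urea cycle and amino acid genes was -0.14, 0.48 and -0.25. The knockout arrays lay between these extremes in both lists. Wild-type array 2 was the highest of the 6 arrays in 31 of the 40 urea cycle and amino acid genes, 22 of the 40 cytochrome P450 genes and 12 of the 23 pericentral genes, where it was the highest in 22.1% of all genes. It was also the highest in 16 of the 29 mitotic genes. Of the pericentral genes 1 was higher (Cyp7a1) and 0 lower. Of 27 periportal genes the lysolipid transporter Mfsd2a rose by 1.17 ± 0.22 (adjusted p = 0.0136) and the steroid dehydrogenase Hsd17b6 fell (-0.84 ± 0.21, adjusted p = 0.0398). Of the urea cycle and amino acid genes the taurine enzyme Csad (-1.30 ± 0.29, adjusted p = 0.0245) and the glutamate dehydrogenase Glud1 (-0.58 ± 0.14, adjusted p = 0.0369) fell. Mfsd2a lost its call without knockout array 1 or 3 (adjusted p up to 0.0566). Without wild-type array 2 the call of Hsd17b6 was lost, as it was without 4 of the other 5 arrays (adjusted p up to 0.14). Csad and Glud1 kept theirs without it but lost them without any 1 knockout array, and Glud1 also without wild-type array 1, with adjusted p up to 0.0849 and 0.133. The median difference of the urea cycle and amino acid list was -0.05 with all arrays, 0.20 without wild-type array 2 and -0.18 without wild-type array 3. That of the pericentral list was 0.13 with all arrays, 0.24 without wild-type array 2 and -0.19 without wild-type array 3. Beyond these fits, the part of wild-type array 2 in these results was not tested.

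**Figure D5:**
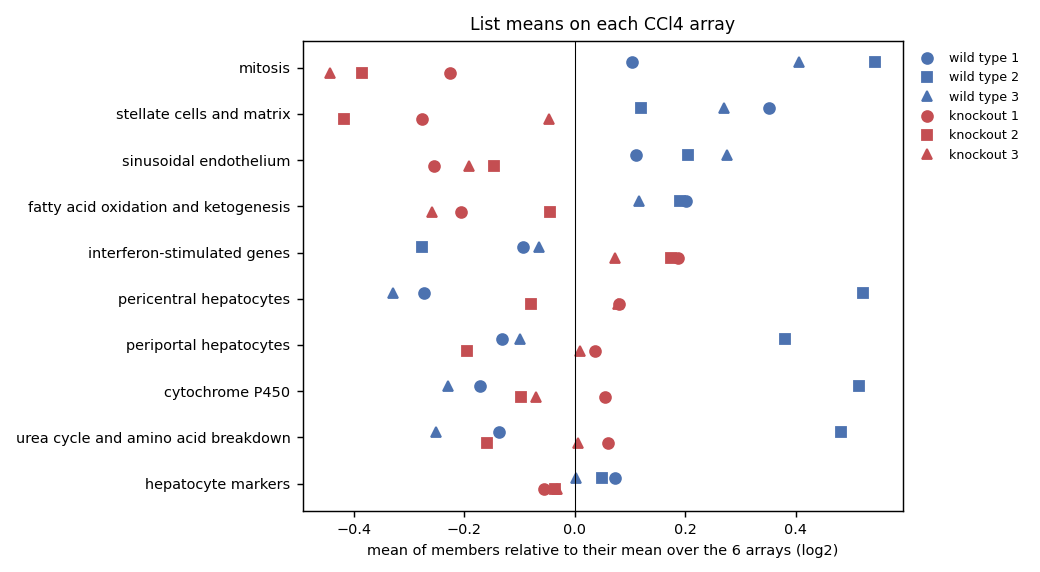
Mean of each list's tested members on each of the 6 CCl4 arrays, relative to the members' mean over the 6 arrays (x axis, log2); blue marks are wild type and red marks are knockout, with the shape giving the replicate. Mitosis, matrix, endothelial, fatty acid oxidation, interferon and hepatocyte marker lists separate the genotypes, the hepatocyte markers narrowly. Those markers were at 0.074, 0.049 and 0.001 on the wild-type arrays and -0.056, -0.036 and -0.032 on the knockout arrays. In the pericentral, periportal, P450 and urea lists wild-type array 2 lies apart, at 0.52 for pericentral genes.

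Growth factor and stress genes were called in both directions, against 3.61% higher and 4.34% lower among all genes. Of 11 imprinted growth genes Igf2 and Grb10 were lower and Phlda2, a placental growth restrictor, was higher. The imprinted list had a median of -0.42, with 10 of 11 members below 0. In the IGF axis 9 of 11 members were below 0, with a median of -0.52, against -0.02 for all genes. Among the 8 detected on all 6 arrays 3 were lower, and in total 4 of 11 were lower and 0 higher. Beside Igf2 these were the insulin receptor substrate Irs2, at 7.70, 7.45 and 7.43 on the wild-type arrays and 6.73, 6.47 and 6.43 on the knockout arrays (-0.98 ± 0.16, adjusted p = 0.00597), and the binding proteins Igfbp7 (-0.79 ± 0.17) and Igfbp4 (-0.63 ± 0.15). Of 20 immediate early and growth factor genes, Egr1 fell from 12.80 to 11.51 on average (-1.29 ± 0.24, adjusted p = 0.0136), and the activin subunit Inhba (0.94 ± 0.18, adjusted p = 0.0135) and its antagonist follistatin, Fst (1.03 ± 0.21, adjusted p = 0.0197), rose. Of 21 endoplasmic reticulum stress genes 3 were lower, Chac1 (-1.14 ± 0.27), Sel1l (-0.68 ± 0.17) and Herpud1 (-0.64 ± 0.16). Of 16 p53 targets cyclin G1, Ccng1, rose by 0.60 ± 0.15 (adjusted p = 0.0345). With 1 array left out the adjusted p reached 0.0966 for Igfbp7, 0.105 for Igfbp4, 0.0569 for Egr1, 0.0623 for Inhba, 0.0692 for Fst and 0.121 for Ccng1. The 3 endoplasmic reticulum stress calls were lost in 4 or 5 of the 6 such fits, with adjusted p up to 0.101 for Chac1, 0.135 for Sel1l and 0.136 for Herpud1.

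Secreted liver proteins showed isolated changes, where 3.61% of all genes were higher and 4.34% lower. Of 37 complement and coagulation genes 2 were higher, the mannose-binding lectin Mbl1 at 9.96, 10.20 and 9.99 on the wild-type arrays and 11.23, 11.01 and 11.003 on the knockout arrays (1.03 ± 0.15, adjusted p = 0.00382) and the terminal complement chain C8g (0.98 ± 0.15, adjusted p = 0.00514), and both were called whichever array was left out. Of 24 acute phase genes 2 were lower, serum amyloid Saa3 (-1.36 ± 0.29, adjusted p = 0.0213) and orosomucoid Orm2 (-0.77 ± 0.21, adjusted p = 0.0447). Saa3 lost its call in 2 of the 6 fits with 1 array left out (adjusted p up to 0.0741) and Orm2 in 5 (up to 0.15). Of 28 glutathione S-transferases and carboxylesterases Ces3b alone was called, at 1.07 ± 0.23 (adjusted p = 0.0212), and of 16 glucuronosyltransferases and sulfotransferases Ugt3a1 and Ugt3a2 (0.89 ± 0.18) were higher and Sult1c2 lower. Ces3b and Ugt3a2 each lost the call in 4 of these fits, with adjusted p up to 0.0825 and 0.0717. Ppp1r3c, a glycogen-targeting subunit of protein phosphatase 1, rose by 0.80 ± 0.18 (adjusted p = 0.0264), and so did the elastase Cela1 by 1.05 ± 0.24 (adjusted p = 0.0282), while the scavenger receptor Stab2 fell (-0.59 ± 0.15, adjusted p = 0.0419). These 3 calls were lost in 4, 5 and 6 of the 6 fits with 1 array left out. No member of 9 of the 48 lists was called, among them 23 NRF2 targets, 14 circadian clock genes and 10 genes of the growth hormone and STAT5 axis.

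The calls were spread over the genome. The share of tested genes called ran from 4.42% on chromosome 1 and 4.49% on chromosome 3 to 10.8% on chromosome 17 and 11.6% on chromosome 4, against 7.95% overall. On the X chromosome 15 of 200 genes were lower and 2 higher. Il4 and Il13 lie side by side on chromosome 11, where 9.79% were called. Of the 12 tested genes on each side of them 1 of 24 was called: Gpx3, the secreted glutathione peroxidase, at 8.46, 7.69 and 8.32 on the wild-type arrays and 7.13, 7.29 and 7.20 on the knockout arrays, with a difference of -0.95 ± 0.20 (adjusted p = 0.0203). The direct neighbours Kif3a and Rad50 differed by -0.58 ± 0.24 and -0.37 ± 0.17, and neither passed the test.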

How the data were processed

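Per the file headers, the authors deposited 1 summarised bead intensity per probe and array, linear and without normalization between arrays, with a detection p-value beside each. The deposited value table holds the same intensity less 1 constant per array, from 48.6 to 56.8, and it served as an alternative. What the constant stands for, the scanner software and the processing steps are not given in the sources used here.

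limma 3.58.1 (R 4.3.3) was used throughout. Its neqc function corrected the background of the 6 CCl4 arrays (offset 16, with control beads inferred from the deposited detection p-values) and applied quantile normalization. Probes with a detection p-value under 0.01 on all 3 arrays of at least 1 group were kept (9238), and each gene was read from its brightest probe on average (6677 genes). Beside the genes noted above, Thrsp and Fst passed this filter through the knockout arrays alone. Sox18, Chac1, Ccl25 and Csad passed it through the wild-type arrays alone. Calls of different probes never opposed each other (0 of 1556 genes with more than 1 probe). The 2-sided test was lmFit with eBayes, p-values were adjusted by Benjamini-Hochberg over all genes, and the threshold was 0.05. The number of arrays limits the precision. The code was tested on simulated data. Vehicle values come from the same method on all 8 arrays. For a gene not well above background on any array of 1 group, a fold is a bound: the brighter group's mean against the dim group's, where each dim array counts at its lowest detected signal or at the gene's own signal if that is higher.

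Genes were named through the platform annotation: 23978 probes have 1 symbol there, 0 have several and 1719 have none. Of those with a symbol 23962 matched the RefSeq table of GRCm38.p6, used for names, chromosomes, gene order and promoters, and 16 kept the annotation's symbol. The comparison and the 48 gene lists (1286 genes, 1115 on the array, 721 tested) were chosen with earlier results of these data known, so the lists are described by counts and medians only.

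Named in the text are the 12 called genes without overlap that rose most and the 12 that fell most, leaving out predicted names. Of each described list, up to 4 called members with the smallest p are named. The rule for uncalled defining members was up to 2 per list, and the matrix and type 2 response paragraphs name more. Named too are the 2 targeted genes, their receptors and Stat6, with Zhx2, its known targets and the Mup genes. The last rule took up to 10 genes per direction detected on the CCl4 arrays of 1 genotype alone. Cdc20, Oasl2, Xist and other sex-linked genes, Gpx3, Kif3a, Rad50 and the hepatocyte and leukocyte markers below detection were added after their values were seen.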

Additional observations from a re-analysis of the deposited data

How the results depend on the processing

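With no detection filter, 16593 genes were tested, and 24 were higher and 36 lower, with 58 calls shared. Median scaling gave 781 lower genes, and its higher count of 190 stayed within 1.5 times of 241. Leaving out 1 array at a time gave 41 to 500 higher and 84 to 391 lower genes. Requiring detection on all 6 arrays left 6101 genes with 190 higher and 206 lower, and the other settings (all 8 arrays, deposited values, an offset of 50, trended and robust variance, array weights, averaged probes) gave 214 to 331 higher and 265 to 343 lower. Of the 102 called genes chosen by the naming rules, 65 were tested with detection on all 6 arrays, and all 65 were called there. Of the 102, 28 were called with no filter, 51 to 95 with 1 array left out and 92 or more under the rest. The cause of these losses was not tested. The replicate numbers did not pair the samples: same-numbered arrays deviated with correlations of -0.12, -0.12 and -0.01, and 0 of 6 samples correlated best with its own number. With the replicate block the counts were 214 higher and 213 lower, with 395 calls shared. It left 4 of the 7 higher interferon-stimulated genes. Without the detection filter, 3 mitotic genes and 0 matrix, endothelial and fatty acid oxidation genes were lower. Weak signal limits the reading of Il4, Il13, their receptors and most lymphocyte, eosinophil and granulocyte markers. A gene that misses the threshold is not shown to be alike in both genotypes.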
